A study of Rattus norvegicus with 12 samples.

Results

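Transcripts of the genes that encode the oxygen sensing machinery of the cell were measured in Tumor cells and in A16 cells. The members are Hif1a, Epas1, Arnt, Hif1an, Vhl, Egln1, Egln2 and Egln3, and every probe set whose only annotated gene symbol was one of these names was taken. Of the 8 genes, 7 had such a probe set, and 9 of the 31042 probe sets tested belonged to them, because Epas1 and Egln1 had a pair each. Hif1an was not analysed here.

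The study describes F111 as a normal fibroblast line of the Fischer rat, although its karyotypes showed aneuploidy in F111 cells. Tumor cells were grown out of explants of tumours, which F111 cells kept in suspension for 16 h (NA16) had formed about 3 months after they were placed under the skin of nude mice. A16 cells are F111 cells that were left to adhere to plastic for 16 h. Each group had 3 Affymetrix rat expression arrays, called replicate 1, technical replicate 2 and replicate 2 here, and technical replicate 2 was averaged with replicate 1, so that n = 2 per group. The labels do not say whether the replicates came from separate cultures, tumours or mice, and p-values therefore measure only the spread between these samples.

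A hypoxia inducible factor (HIF) is a pair of an alpha subunit, from Hif1a or Epas1, and the beta subunit from Arnt. In the presence of oxygen the prolyl hydroxylases encoded by Egln1, Egln2 and Egln3 modify the alpha subunit, which the VHL protein then recognises and hands to a ubiquitin ligase for degradation, while the asparaginyl hydroxylase encoded by Hif1an blocks the binding of coactivators. When oxygen is short the alpha subunit escapes, enters the nucleus with ARNT and binds DNA at short elements with the core ACGTG or GCGTG, and Egln1 and Egln3 are themselves known targets. Much of this control acts on the proteins, which an expression array does not measure.

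The DNA just upstream of the members is shown for the genes whose transcripts differ most between the groups, together with Egln1, the other known target. The sequences are the 250 bases before the annotated start of each gene in RefSeq (rat assembly GRCr8), written 5′ to 3′ on the strand of the gene, and capitals mark ACGTG or GCGTG on either strand. The windows are chr6:77411016-77411265 (minus strand) for Egln3, chr2:185686453-185686702 (plus strand) for Arnt, chr6:98359648-98359897 (plus strand) for Hif1a and chr19:69804682-69804931 (minus strand) for Egln1.
Egln3: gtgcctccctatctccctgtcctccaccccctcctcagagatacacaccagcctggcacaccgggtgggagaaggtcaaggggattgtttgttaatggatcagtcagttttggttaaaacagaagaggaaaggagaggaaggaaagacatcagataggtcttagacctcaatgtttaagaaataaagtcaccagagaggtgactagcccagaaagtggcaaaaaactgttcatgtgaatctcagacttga
Arnt: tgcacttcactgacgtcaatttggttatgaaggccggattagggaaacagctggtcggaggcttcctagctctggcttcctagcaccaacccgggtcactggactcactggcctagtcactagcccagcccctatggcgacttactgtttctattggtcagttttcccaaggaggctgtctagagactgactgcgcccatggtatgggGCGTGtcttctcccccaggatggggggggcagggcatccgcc
Hif1a: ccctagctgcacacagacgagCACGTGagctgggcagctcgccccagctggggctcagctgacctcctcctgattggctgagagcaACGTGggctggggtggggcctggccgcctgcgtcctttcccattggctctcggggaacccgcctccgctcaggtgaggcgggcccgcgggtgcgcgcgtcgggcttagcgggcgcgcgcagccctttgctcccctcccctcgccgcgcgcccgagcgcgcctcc
Egln1: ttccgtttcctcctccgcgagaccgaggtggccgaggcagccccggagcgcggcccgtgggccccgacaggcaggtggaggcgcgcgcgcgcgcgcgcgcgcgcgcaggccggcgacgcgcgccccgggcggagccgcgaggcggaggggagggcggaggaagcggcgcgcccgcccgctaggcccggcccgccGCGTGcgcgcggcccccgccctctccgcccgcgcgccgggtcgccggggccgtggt

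Promoters were found in RefSeq for all 8 members, and 3 of them held a match in this window. The window of Hif1a had 3 matches to ACGTG, of which a pair overlapped on opposite strands as CACGTG. Arnt had 1 GCGTG, starting 42 bases before the start, and Egln1 had 1 GCGTG, 56 bases before it. No match was present in the windows of Egln3, Epas1, Egln2, Hif1an or Vhl. Among 33469 rat promoters of the same length 36.7% held at least 1 match, 16.6% to ACGTG and 25.9% to GCGTG. The base composition of the windows differed widely, with a GC content of 46.8% for Egln3, 57.6% for Arnt, 73.6% for Hif1a and 85.2% for Egln1, against a median of 51.2% over all promoters. A match describes the letters only and no binding was measured.

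Before the members are described, the arrays and the labelled cell type were compared. The Pearson correlation over probe sets was 0.995 to 0.997 among Tumor arrays, 0.991 to 0.997 among A16 arrays and 0.933 to 0.949 between arrays of different groups. Beta-actin probe sets at the 3′ end were brighter than those at the 5′ end by a log2 difference of 2.25 to 2.37 on Tumor arrays and 0.64 to 0.71 on A16 arrays, and the poly-A control transcripts averaged 4.91 on Tumor arrays and 7.48 on A16 arrays. RNA or labelling quality and group cannot be told apart for this reason. Genes were called at a limma adjusted p under 0.05 with at least 2-fold, and over all genes 5.45% were called higher in Tumor cells and 5.44% lower. Of 12 fibroblast markers none was called higher and 4 were called lower (Col1a1, Col1a2, Thy1 and Fn1). The mean log2 intensity of the list was 9.72 to 9.74 on Tumor arrays and 10.33 to 10.46 on A16 arrays. Of 10 macrophage and leukocyte markers 2 were called higher, with differences of 3.14 for Csf1r and 1.07 for Cd68, and none was lower. The mean level of that list was 6.15 to 6.17 on Tumor arrays and 5.61 to 5.76 on A16 arrays, and 5 of its genes lay in the lowest 30% of probe sets. Ptprc, the defining leukocyte gene, was at 5.06 in Tumor cells and 5.13 in A16 cells. The tumours grew in mice and the arrays carry rat probe sets, so these levels cannot show whether host leukocytes were present. Flt1 was the only gene called of 9 endothelial markers, with its dimmer probe sets at -0.05 and 0.20 and not called. Krt8 was the only one called of 9 epithelial markers, and none of 10 muscle and fat markers was called. The part of these differences in the results below was not tested, and in such bulk samples fewer cells of a type and less RNA per cell cannot be told apart.

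The members were called by the same rule, with Benjamini-Hochberg adjustment over all probe sets tested, and a gene with several probe sets was counted by the brightest. By this rule 1 of the 7 members, Egln3, was higher in Tumor cells and 1, Arnt, was lower. Over all 14217 genes 5.45% were called higher and 5.44% lower. With no minimum fold 2 members were higher (Egln3 and Hif1a), where the background was 17.4%, and 1 was lower (Arnt), where it was 16.6%. The 3 Tumor arrays did not overlap the 3 A16 arrays for 6 of the 7 members, all but Epas1, an order shown by 55.9% of all genes. The median difference was 0.23 for the members and 0.03 for all genes (log2, Tumor minus A16), and 71.4% of the members, against 89.0% of all genes, differed by less than 2-fold.

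**Figure D1:**
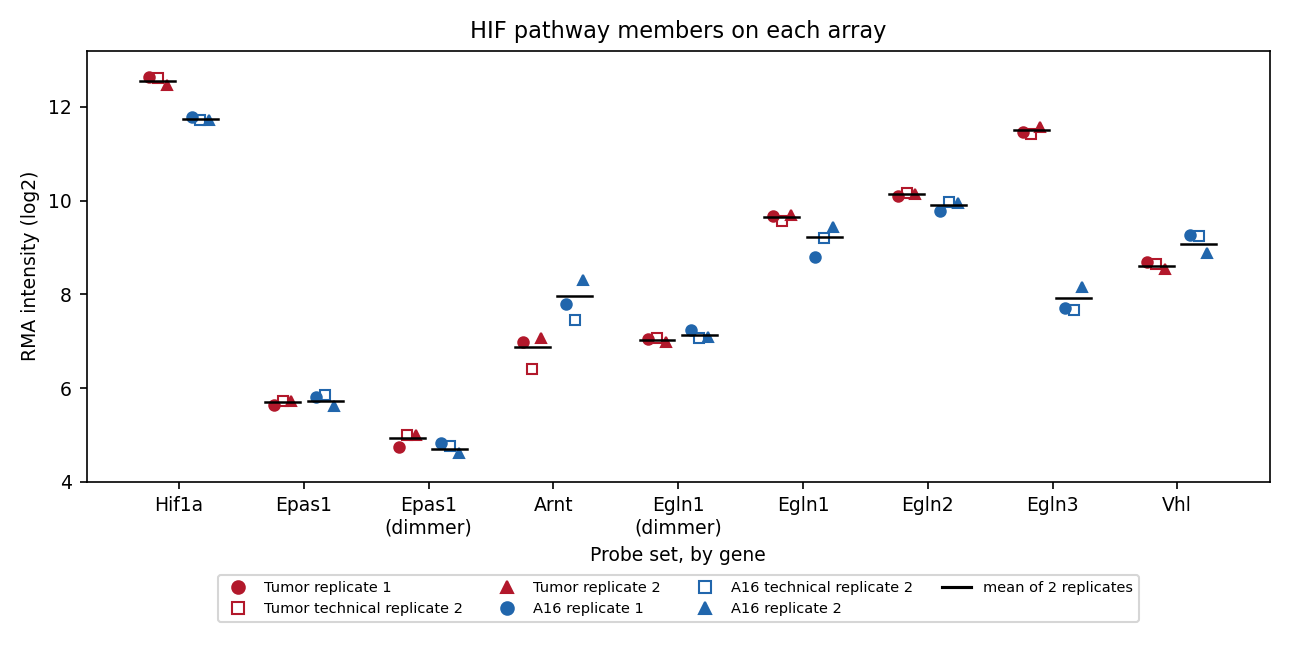
RMA intensity (log2) of the 9 member probe sets on each array, Tumor in red to the left and A16 in blue to the right. Circles are replicate 1, open squares technical replicate 2, triangles replicate 2, and bars the mean of 2 replicates. Egln3 stands 3.26 apart between the nearest arrays of the groups, while the Epas1 arrays overlap.

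Egln3 encodes the hydroxylase of this family whose transcript is best known for its induction under hypoxia, and it had the largest difference of the members. Its log2 intensity (probe set 1368174_at) was 11.47, 11.42 and 11.58 on Tumor replicate 1, technical replicate 2 and replicate 2, against 7.70, 7.66 and 8.16 on the A16 arrays in the same order. All Tumor arrays were high, and the lowest of them lay 3.26 above the highest A16 array, whereas the arrays spread over 0.16 within Tumor and 0.50 within A16. Means were 11.51 ± 0.09 in Tumor cells and 7.92 ± 0.34 in A16 cells (SD, n = 2 each). The difference was 3.59 ± 0.18 (SE), or 12.1-fold, with a limma adjusted p of 4.32e-05 and a 95% interval of 3.17 to 4.01. It was the 56th of 14217 genes by size of rise. After PLIER, the other summary of the same arrays, the difference was 3.50, or 11.3-fold.

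Egln1 encodes the hydroxylase held to be the main oxygen sensor of most cells. Its brighter probe set (1389207_at) read 9.66, 9.56 and 9.70 on Tumor arrays, against 8.80, 9.21 and 9.44 on A16 arrays. The groups did not overlap, but A16 replicate 2 lay only 0.12 below the lowest Tumor array. The difference of 0.43 ± 0.16 (SE, n = 2 per group, 95% interval 0.04 to 0.83) did not pass the test (limma adjusted p = 0.0943). The dimmer probe set (1375262_at) read 7.04, 7.07 and 6.99 on Tumor arrays, against 7.25, 7.06 and 7.10 on A16 arrays, and these arrays overlapped. Its difference of -0.10 ± 0.11 had the opposite sign (adjusted p = 0.537), and with PLIER it was 0.21, so that no direction can be given for Egln1 from both probe sets.

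Egln2 encodes the hydroxylase that in human cells is not known to be induced by hypoxia. Its probe set (1373794_at) read 10.11, 10.16 and 10.15 on Tumor arrays, against 9.77, 9.96 and 9.96 on A16 arrays. The Tumor arrays were all slightly higher, with a gap of 0.14 to the nearest A16 array. The difference of 0.23 ± 0.11 (SE, 95% interval -0.04 to 0.49) did not pass the test (limma adjusted p = 0.175), and the interval leaves out a 2-fold change in either direction. Within an array the log2 ratio of Egln3 to Egln1 was 3.16 higher in Tumor cells and that of Egln3 to Egln2 was 3.36 higher, with all Tumor arrays above all A16 arrays for both ratios. Both ratios mostly restate the difference of Egln3 and are no separate result. The ratios of Hif1a to Arnt (1.89), Hif1a to Vhl (1.27) and Egln3 to Vhl (4.06) were also higher in Tumor cells. With 2 replicates against 2 the two-sided exact permutation test gave p = 0.333 for each of the 5 ratios examined, which is the smallest p this design allows.

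Hif1a encodes the alpha subunit present in most cell types. Its probe set (1387076_at) read 12.63, 12.62 and 12.47 on Tumor arrays, against 11.79, 11.72 and 11.72 on A16 arrays. The Tumor arrays were all higher, with a gap of 0.68. Means were 12.55 ± 0.11 in Tumor cells and 11.74 ± 0.02 in A16 cells (SD, n = 2 each), and the difference of 0.81 ± 0.12 (SE), or 1.75-fold, had a limma adjusted p of 0.00277. It passed the test but not the 2-fold minimum, and the 95% interval of 0.53 to 1.09 includes 2-fold.

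Epas1 encodes the other alpha subunit, best known from endothelium, and neither probe set differed detectably between the groups. The brighter probe set (1369703_at) read 5.64, 5.73 and 5.72 on Tumor arrays, against 5.80, 5.85 and 5.62 on A16 arrays, and the dimmer one (1398333_at) read 4.75, 4.99 and 5.00 on Tumor arrays, against 4.84, 4.76 and 4.61 on A16 arrays. The arrays of the groups overlapped on both. The differences were -0.02 ± 0.12 (95% interval -0.31 to 0.27) and 0.23 ± 0.12 (-0.07 to 0.53), with limma adjusted p of 0.917 and 0.226. Both probe sets were dim, brighter than 34.0% and 13.7% of all probe sets, and a change of a transcript near the floor of an array is understated. The change of Hif1a was not tested against that of Epas1.

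Arnt encodes the beta subunit, which also pairs with the dioxin receptor and other factors of the same family. Its probe set (1369244_at) read 6.98, 6.41 and 7.08 on Tumor arrays, against 7.80, 7.46 and 8.31 on A16 arrays. All Tumor arrays were lower, with a gap of 0.38 between the groups, and the spread was wide, since the paired technical arrays alone differed by 0.57 in Tumor and 0.34 in A16. Means were 6.89 ± 0.27 in Tumor cells and 7.97 ± 0.48 in A16 cells (SD, n = 2 each). The difference was -1.08 ± 0.24 (SE, 95% interval -1.67 to -0.50), or 2.12-fold lower, with a limma adjusted p of 0.0159. PLIER gave -1.44 ± 0.34 (adjusted p = 0.0196). The call held in 10 of 14 refits of the difference, and it was also lost with the methods' t-test, adjusted or not. Among the refits it was lost with a PLIER offset of 1, with technical replicate 2 averaged with replicate 2, without Tumor replicate 1 (-0.89, adjusted p = 0.0975), where the test was missed, and without A16 replicate 2 (-0.74, adjusted p = 0.00600), where the fold fell short of 2. The adjusted p ranged over these refits between 5.49e-05 and 0.0975.

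Vhl encodes the substrate receptor that binds the hydroxylated alpha subunit. Its probe set (1368076_at) read 8.70, 8.66 and 8.55 on Tumor arrays, against 9.27, 9.25 and 8.89 on A16 arrays. The Tumor arrays were all lower, by a gap of 0.20. The difference of -0.47 ± 0.15 (SE, 95% interval -0.83 to -0.10) did not pass the test after RMA (limma adjusted p = 0.0603), while after PLIER it was -0.54 with an adjusted p of 0.0339, still under 2-fold.

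**Figure D2:**
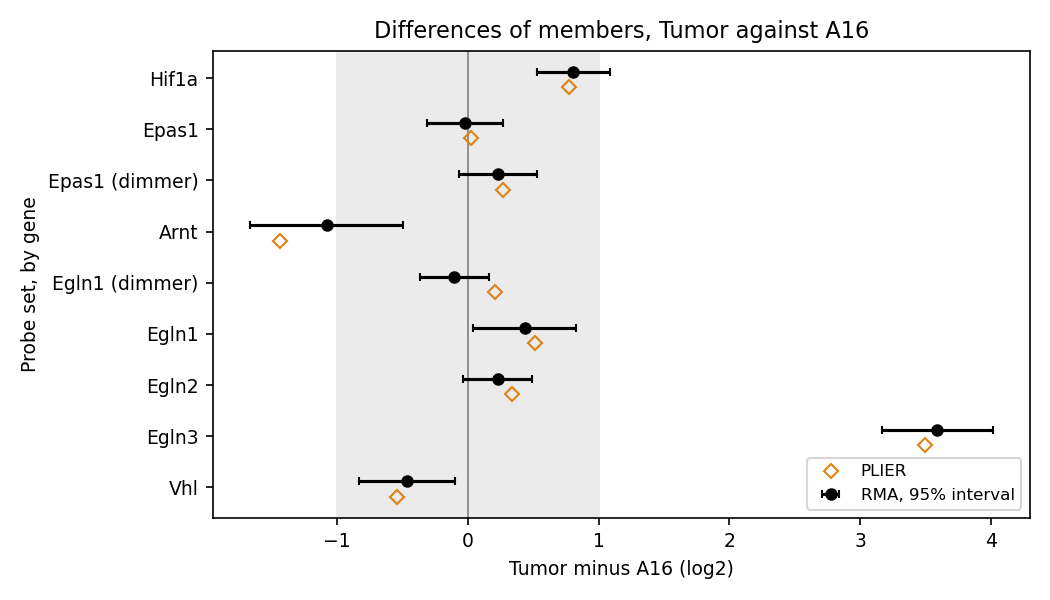
Difference between Tumor and A16 (log2, horizontal axis) for each member probe set, as a point with its 95% interval after RMA and a diamond after PLIER. The grey band marks differences under 2-fold. Egln3 lies at 3.59, Arnt at -1.08 with an interval of -1.67 to -0.50, and the other probe sets lie inside the band.

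The calls of Egln3 and Arnt were compared over the 14 ways of processing the same arrays. Egln3 was called by limma in all of them, at 3.35 to 3.83, with adjusted p between 1.11e-08 and 0.00182, but not by the methods' t-test after adjustment, which called 6 of all genes. Hif1a kept its sign and its side of the thresholds in all 14, at 0.73 to 0.89. Vhl ranged between -0.65 and -0.28 (adjusted p 0.00431 to 0.263) and the brighter probe set of Egln1 between 0.21 and 0.65 (adjusted p 0.00392 to 0.318), always under 2-fold. Vhl passed the adjusted p in 6 of the 14 and Egln1 in 4, and neither changed sign. Both passed without A16 replicate 2, where Vhl was at -0.65 (adjusted p = 0.00458) and Egln1 at 0.65 (adjusted p = 0.00392).

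**Figure D3:**
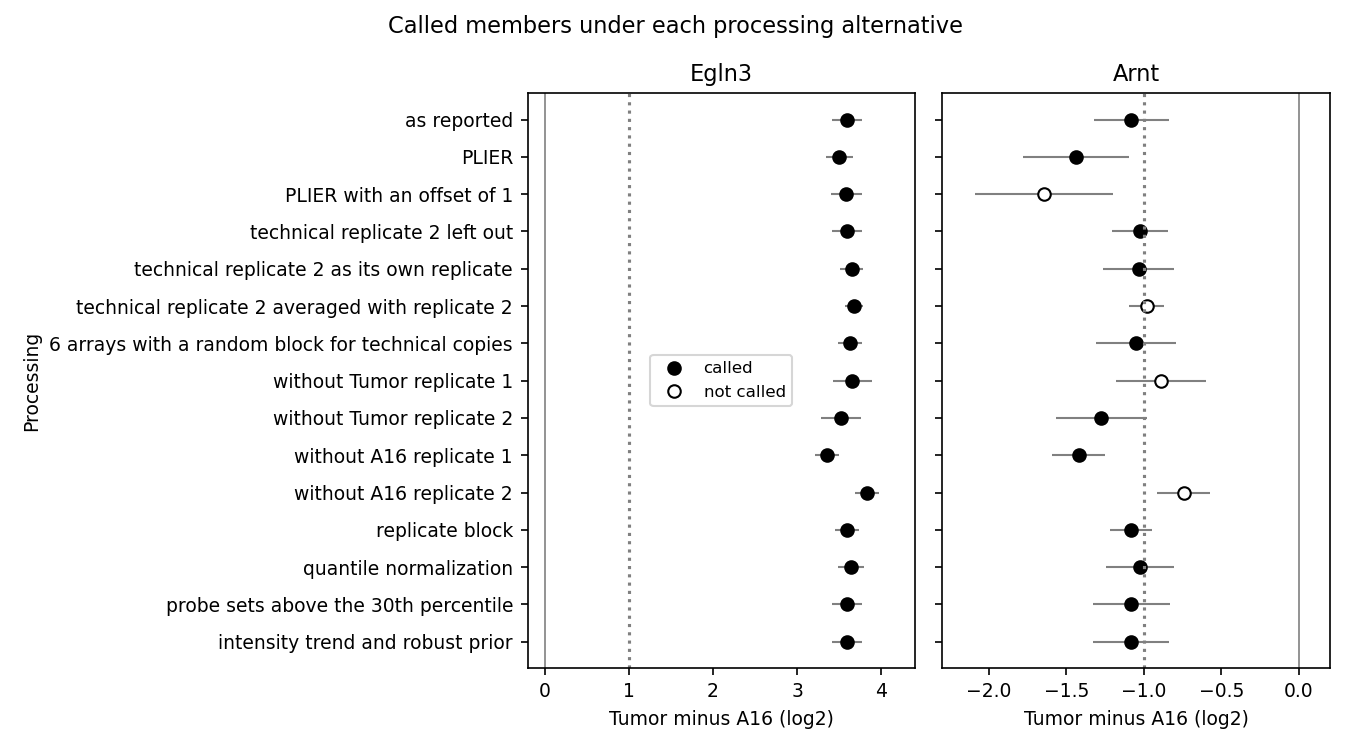
Difference between Tumor and A16 (log2, horizontal axes) of Egln3 and Arnt under each way of processing, with bars for the SE. Filled points are called and open points are not, and the dotted line marks 2-fold. Egln3 stays between 3.35 and 3.83, and Arnt between -1.65 and -0.74 with 4 open points.

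Some genes followed nearly the same profile over the 6 arrays, measured as the root mean square distance between log2 values after each gene was set to its A16 mean. Nearest to Egln3 were Dyrk3, a protein kinase (distance 0.15), Angptl2, a secreted angiopoietin-like protein (0.16), Kcnn4, a calcium-activated potassium channel (0.17), Mrgprf, an orphan G protein-coupled receptor (0.19), and Tbx3, a T-box transcription factor (0.19). Their own differences were 3.59 to 3.83. Nearest to Arnt were Fbxl7, an F-box protein (distance 0.10), Gsr, glutathione reductase (0.14), Lgals9, a galectin (0.15), Stat6, a transcription factor of cytokine signalling (0.16), and Chek2, a checkpoint kinase (0.17), whose differences lay between -1.23 and -0.96. With 2 groups, likeness of this kind amounts to an equal difference with a like spread.

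Genes next to the members on the chromosome were also compared. Over all genes 5.45% were called higher and 5.44% lower, so an absence of calls among 6 genes says little about a place. Around Egln3, on chromosome 6, none of the 6 nearest measured genes in RefSeq order was called, and their differences lay between -0.74 for Arhgap5 and 0.66 for Akap6. None of the 6 around Arnt, on chromosome 2, was called either, with differences of 0.04 to 0.75, all above 0. None was called around Hif1a, Egln2 or Vhl, and 1 was higher next to Egln1 (Sipa1l2, 1.25) and 1 next to Epas1 (Socs5, 1.05). Hif1a, Epas1 and Egln3 all lie on chromosome 6, where 6.80% of 603 genes were called higher and 7.13% lower, with a median difference of 0.05. The study's karyotypes showed a translocation between copies of chromosome 2 in a minority of A16 cells but in all tumour cells. Another, between copies of chromosome 6, was seen in both groups. Copy number was not measured here, and its part in these differences was not tested.

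The rest of the pathway was described from lists of genes picked by role. Of 28 other regulators, 27 were measured, of which 2 were higher (Sim2 and Cited2), 1 was lower (Ube2s) and 24 were not called. Over all genes 5.45% were called higher and 5.44% lower. The median difference was -0.02 for these regulators, against 0.03 for all genes. With no minimum fold 6 of the 27 were higher and 4 lower, where 17.4% and 16.6% of all genes were. The largest difference was that of Sim2, a transcription factor of the same family that pairs with ARNT. It read 11.75, 11.59 and 11.58 on Tumor arrays, against 8.40, 8.27 and 8.48 on A16 arrays, and rose by 3.22 ± 0.12 (SE, n = 2 per group), or 9.32-fold, with a limma adjusted p of 1.87e-05. Other listed genes of this family differed less, with 0.39 for Arnt2, -0.18 for Ahr and -0.13 for Hif3a. Sim1 (0.13), Npas1 (0.14) and Npas3 (0.07) also differed little, and none of these genes was called. The dimmer probe sets of Arnt2 (-0.16) and Ahr (0.35) had the opposite sign.

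Cited2, whose protein competes with the HIF alpha subunit for the coactivators p300 and CBP and is itself a known HIF target, read 12.87, 12.89 and 12.87 on Tumor arrays, against 11.53, 11.55 and 11.31 on A16 arrays. It was 2.74-fold higher in Tumor cells (1.45 ± 0.12, limma adjusted p = 0.000369), but its dimmer probe set differed by only 0.42 and was not called. The coactivator genes themselves differed by less than 2-fold, with 0.66 for Ep300 (adjusted p = 0.00463, and -0.01 on its dimmer probe set) and 0.42 for the brightest probe set of Crebbp (adjusted p = 0.0479), whose other probe sets ran between -1.32 and 1.07, with calls in both directions. Ube2s, a ubiquitin conjugating enzyme reported in human cells to target VHL, read 11.85, 11.79 and 11.87 on Tumor arrays, against 13.08, 13.16 and 13.16 on A16 arrays, and was 2.46-fold lower in Tumor cells (-1.30 ± 0.11, adjusted p = 0.000348). The dimmer probe set of Ube2s was also lower (-0.73), but by less than 2-fold and without a call. None of the 5 genes for the other parts of the VHL ubiquitin ligase and its activator (Elob, Eloc, Cul2, Rbx1 and Nedd8) was called, and by the brightest probe set none passed the test at any fold, with differences between -0.14 for Rbx1 and 0.14 for Cul2. Dimmer probe sets of Cul2 (0.59, adjusted p = 0.0115) and Eloc (0.58, adjusted p = 0.0417) passed it at less than 2-fold.

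The hydroxylases consume 2-oxoglutarate and release succinate. Of 16 genes for enzymes that make or use 2-oxoglutarate, succinate and fumarate, 14 were measured and none was called at 2-fold. The shares of all genes were 5.45% higher and 5.44% lower, so an absence of calls among 14 genes says little. With no minimum fold 1 was higher, where 17.4% of all genes were. It was the cytosolic isocitrate dehydrogenase Idh1 at 0.97 ± 0.13 (limma adjusted p = 0.00185, and 0.12 on its other probe set). Lower were Ogdh, of the 2-oxoglutarate dehydrogenase complex (-0.60, adjusted p = 0.00978), Idh3g (-0.48), Suclg1 (-0.48) and Suclg2 (-0.44), or 4 of 14, where 16.6% of all genes were lower. Genes of the same cycle that did not pass included Sucla2 (0.43, and 0.06 on its dimmer probe set), Idh3a (0.10), Idh3b (-0.11) and Idh2 (-0.28). The same held for Sdha (-0.15), Sdhb (-0.33), Sdhc (-0.27) and Sdhd (-0.05). The median of the list was -0.21, against 0.03 for all genes.

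Genes known as targets of HIF in other settings were called in both directions. Of 36 such genes 35 were measured, of which 5 were higher and 6 lower in Tumor cells and 24 were not called, where 5.45% of all genes were higher and 5.44% lower. With no minimum fold 11 were higher and 9 lower, where 17.4% and 16.6% of all genes were. The median was -0.07, against 0.03 for all genes. Stc1, a secreted glycoprotein hormone, differed by 3.74 ± 0.15 (13.3-fold higher) on its brightest probe set. Its dimmer probe sets differed by 1.48 and 2.71 and were also called. Adm, the vasodilator peptide adrenomedullin, read 10.43, 10.57 and 10.67 on Tumor arrays, against 8.17, 8.07 and 8.26 on A16 arrays, and was 5.28-fold higher (2.40 ± 0.12, limma adjusted p = 5.26e-05). The other higher genes, named after their values were seen, were Hmox1, heme oxygenase (1.52), Mxi1, a MYC antagonist (1.46, and 0.33 without a call on its dimmer probe set), and the glucose transporter Slc2a1 (1.10).

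Among the lower targets were the lysyl oxidases Lox (-3.53 ± 0.12, 11.6-fold lower) and Loxl2 (-3.16 ± 0.12, 8.95-fold lower), which crosslink collagen. Their dimmer probe sets, at -4.33 for Lox and -1.60 for Loxl2, were also called lower. Car9, a carbonic anhydrase widely used as a hypoxia marker, read 9.73, 9.80 and 9.84 on Tumor arrays, against 11.71, 11.73 and 12.07 on A16 arrays, and was 4.28-fold lower (-2.10 ± 0.15, limma adjusted p = 0.000175). The remaining lower genes, again chosen with their values in view, were the collagen prolyl hydroxylases P4ha2 (-1.57) and P4ha1 (-1.46), and Pdk1, the kinase that holds back pyruvate dehydrogenase (-1.51). Dimmer probe sets of P4ha2 (-0.68) and Pdk1 (-0.87) were also lower, but by less than 2-fold and without a call.

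**Figure D4:**
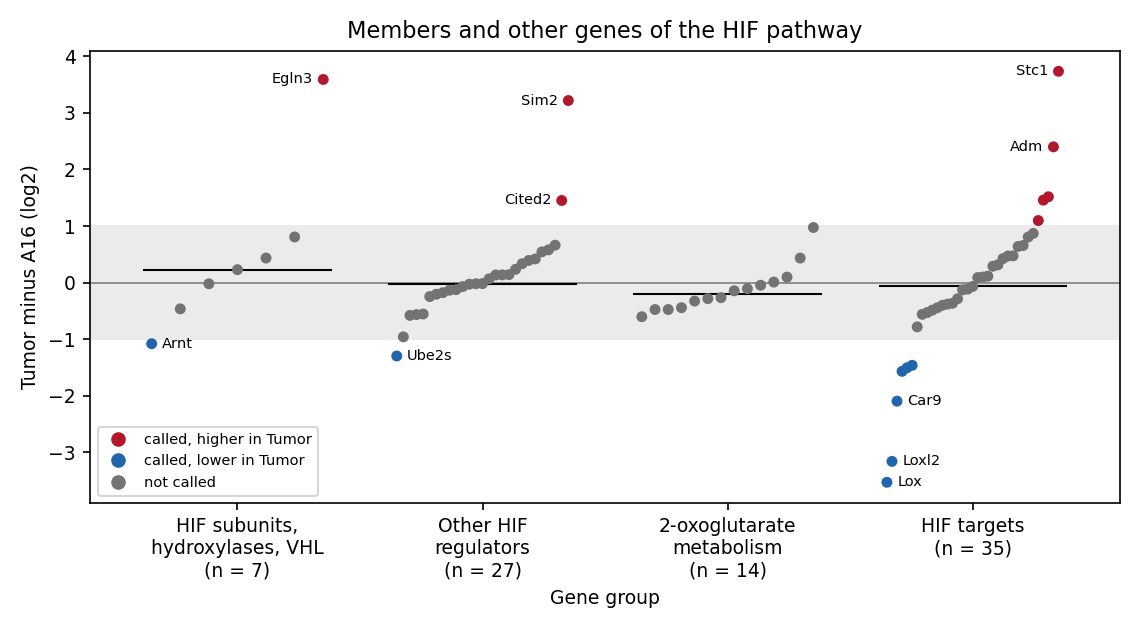
Difference between Tumor and A16 (log2, vertical axis) of each measured gene, by its brightest probe set, in 4 gene groups, with a line at the median of each. Red genes were called higher in Tumor, blue ones lower, and the grey band marks differences under 2-fold. Egln3, Sim2 and Stc1 stand at 3.59, 3.22 and 3.74, and Lox and Loxl2 at -3.53 and -3.16.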

How the data were processed

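Total RNA was converted to biotinylated cRNA with a one cycle kit and hybridised to Affymetrix rat arrays. According to the study's methods the authors adjusted the background in the scanner software and summarised the scans with RMA and with PLIER in Avadis, whose versions the sources used here do not name. The deposited values are array intensity on a linear scale, so log2 was taken, although log2 values had been assumed in the plan. The 12 records are 6 arrays in 2 summaries, and a summary was never counted as a further sample. PLIER values had a floor of 16, so log2 was taken of the value as deposited. The labels give the same medium for both groups, but by the study's methods tumour explants received more serum.

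Of 31099 probe sets 57 were controls and 31042 were tested, of which 20826 carried 1 gene symbol, 436 several and 9780 none. Probe sets with several symbols named no gene. Tumor was compared with A16 with limma 3.58.1 in R 4.3.3 (lmFit, eBayes, two-sided, Benjamini-Hochberg). Technical replicate 2, which carries no biological number, was averaged with replicate 1 on the log2 scale. SE is the moderated standard error. The number of arrays limits the precision, and detection calls were not used here. In simulated data with 31042 probe sets, of which only 200 were changed, 17 of 50 probe sets changed 2-fold passed the adjusted p. In the real data 4827 of 14217 genes passed it. The adjustment depends on that share, so the simulation does not tell how often a 2-fold change would pass here. All members were named, with at most 5 called genes of each wider list by size and the 5 nearest profiles of each called member. Other genes of the lists were named after their values were seen. The members and lists were chosen with earlier results of these data known. Alternatives were PLIER with and without an offset of 1, other uses of technical replicate 2, a left-out replicate, a replicate block, quantile normalization, a filter on dim probe sets, the mean of a gene's probe sets, another variance model, no minimum fold and the methods' t-test.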

Additional observations from a re-analysis of the deposited data

How the results depend on the processing

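Of 125 comparisons of the 9 member probe sets over 14 settings, 116 kept their sign and their call (adjusted p under 0.05 with at least 2-fold, or not), 4 lost the call, all for Arnt, and 5 changed sign. By the adjusted p alone Vhl passed in 6 settings and the brighter Egln1 probe set in 4, all under 2-fold. Arnt was not called at -1.65 (PLIER with an offset of 1, adjusted p = 0.0575), -0.98 (technical replicate 2 averaged with replicate 2), -0.89 (without Tumor replicate 1) and -0.74 (without A16 replicate 2). The sign changed for the brighter Epas1 probe set with PLIER (0.0214), PLIER with an offset of 1 (0.0277) and without 1 replicate (-0.125 to 0.0821, above 0 without A16 replicate 1), and for the dimmer Egln1 probe set with PLIER (0.21) and PLIER with an offset of 1 (0.32). The cause was not tested.

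The number of members called lower was 0 with the PLIER offset of 1, with technical replicate 2 averaged with replicate 2 and with the methods' t-test, adjusted or not, and 0 to 1 with 1 replicate left out. Members called higher numbered 2 with no minimum fold and 0 with the adjusted methods' t-test. With the PLIER offset of 1, calls numbered 6 among other regulators and 1 among 2-oxoglutarate genes, for which leaving out 1 replicate gave 0 to 1. With no minimum fold they numbered 10 among other regulators, 5 among 2-oxoglutarate genes and 20 among HIF targets, and with the adjusted methods' t-test 0 among other regulators and HIF targets. Over all genes 1549 were called, 2357 with the PLIER offset of 1, 4827 with no minimum fold, 1405 with the methods' t-test and 6 after its adjustment. Leaving out 1 replicate gave 1454 to 1762.

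Same-numbered replicates of the groups deviated together only weakly (r = 0.121 over probe sets, 2 pairs), so the numbers were not taken as pairs. With a replicate block 1560 genes were called and Arnt was at -1.08 (adjusted p = 0.000181). No member call at 2-fold changed with the block, but under 2-fold Vhl (adjusted p = 0.0207) and the brighter Egln1 probe set (adjusted p = 0.0355) then passed the adjusted p.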
